A study of Rattus norvegicus with 27 samples.

Results

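The contractile genes of myoepithelial and smooth muscle cells were followed across the development of the rat parotid: Acta2, Actg2, Myh11, Tagln, Cnn1, Myl9, Mylk, Smtn, Lmod1 and Cald1. They were taken by name, with every probe set that the array annotation pairs with them. They were 10 of 14217 genes measured by a probe set of their own, and 15 of the 31042 probe sets tested carried the name of 1 member alone: 3 for Cald1, 2 each for Myh11, Mylk and Smtn, and 1 for each of the others. Another 5 probe sets were paired with both Acta2 and Actc1, the cardiac actin gene that fetal skeletal muscle also uses, and are counted separately. Each gene is described by its leading probe set, the one with the highest mean over all arrays. The set was put together with a course of high levels in the first postnatal weeks and lower levels later in mind, so counts of members that follow it are descriptions of the set.

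Contraction of smooth muscle and of myoepithelial cells rests on a small set of proteins. Actin filaments of the smooth muscle type (Acta2 and Actg2) are pulled by the smooth muscle myosin heavy chain (Myh11), whose regulatory light chain (Myl9) is phosphorylated by myosin light chain kinase (Mylk), and calponin (Cnn1), transgelin (Tagln), caldesmon (Cald1), smoothelin (Smtn) and leiomodin (Lmod1) bind and order the filaments. In salivary glands the main epithelial users of this set are the myoepithelial cells, flat basal cells that wrap secretory end pieces and intercalated ducts and squeeze saliva out. Vascular smooth muscle and pericytes use the same genes, so no member of the set marks myoepithelium alone. Many of these genes are targets of serum response factor (SRF), which binds the CArG box together with its partner myocardin.

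The samples were untreated Sprague Dawley rats (spelled Sprauge Dawley in the labels) of 9 ages: E18 and E20 before birth, P0 at birth, then P2, P5 and P9 in the first weeks and P15, P20 and P25 up to weaning. Each age had 3 arrays, 27 in all. Acinar cells, recognised by their structure in stained sections, were cut out by laser, and total RNA was amplified and hybridised to Affymetrix rat genome arrays. Per the study's methods each array of an age stood for a litter of its own, whole heads were sectioned for the ages through P5, and older glands were dissected first. The study's 4 stages, which were drawn on the same arrays, group the ages: stage 1 holds the 9 arrays up to birth, stage 2 the 6 arrays of P2 and P5, stage 3 the 6 of P9 and P15 and stage 4 the 6 of the last ages. Mid-development is the mean of stages 2 and 3. Sex was not given in the labels.

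Values are log2 units of the deposited table, in which 1 unit is a doubling, and they are not compared between probe sets. Array medians lay between 5.91 and 6.13, and correlations between arrays of an age between 0.873 and 0.962. Acinar genes were high in the last ages and low in the first. The mean level of 10 of them lay between 4.43 and 6.83 in stage 1 and between 12.3 and 12.55 in stage 4. Bpifa2, a main secretory protein, averaged 3.71 at E18 and 14.16 at P25. The paper describes acinar cells just before birth as still poorly formed. From low levels of these genes, immature acinar cells and other cells cannot be told apart. Markers of other tissues were measured in the same captures. The mean level of 21 skeletal muscle markers lay above 9.5 in 6 arrays (E18 replicate 1, E20 replicate 1, P0 replicate 1, P5 replicates 1 and 3 and P9 replicate 3), so the results for the contractile genes were also computed without these arrays.

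The smooth muscle actin and the calponin were 2 of the members whose mRNA rose most, and the 250 bases before their transcription starts are shown because many smooth muscle genes carry CArG boxes near their start. The sequences are from RefSeq on the rat build GRCr8, written 5′ to 3′ along the gene, and capitals mark matches to the CArG box with 1 mismatch.
Acta2, chr1:241172504-241172753, minus strand: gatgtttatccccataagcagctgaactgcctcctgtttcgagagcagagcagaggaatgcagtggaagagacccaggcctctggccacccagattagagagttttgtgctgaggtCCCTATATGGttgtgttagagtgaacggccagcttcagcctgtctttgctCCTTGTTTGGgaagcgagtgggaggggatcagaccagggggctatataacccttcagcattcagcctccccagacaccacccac
Cnn1, chr8:28908187-28908436, plus strand: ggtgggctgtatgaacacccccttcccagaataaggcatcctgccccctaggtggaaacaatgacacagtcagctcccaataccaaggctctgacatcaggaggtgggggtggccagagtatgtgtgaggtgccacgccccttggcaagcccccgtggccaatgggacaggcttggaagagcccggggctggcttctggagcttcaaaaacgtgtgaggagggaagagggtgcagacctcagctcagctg
The CArG box (CC, then 6 bases that are each A or T, then GG) reads as the same motif on the other strand, so 1 reading covers both. In Acta2, matches with 1 mismatch began 134 and 84 bases before the start, and no stretch matched exactly. In Cnn1 no match with up to 1 mismatch was found in these letters. The table held 7 windows for 6 of the members (Acta2, Actg2, Cnn1, Mylk, Smtn and 2 for Cald1). Besides Acta2, matches with 1 mismatch stood in Smtn, 110 bases before the start, and in 1 of the Cald1 windows, 245 bases before it. These are shown with 10 bases on either side where the window reaches that far.
Acta2, 134 bases before the start: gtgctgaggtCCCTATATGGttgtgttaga
Acta2, 84 bases before the start: tgtctttgctCCTTGTTTGGgaagcgagtg
Smtn, 110 bases before the start: aggggcggggCCTAAAATTGaattttccca
Cald1, 245 bases before the start: ttcaaGCTTTTTAGGacttggtttt
Of 33469 promoter windows of the same length, 18.7% held at least 1 such match, 3.05% held at least 2 and 1.5% held an exact one. With 3 of 7 member windows holding a match, the count is too small to be set against that share, and a match is a run of letters rather than a bound site. No window was given for Tagln, Myh11, Myl9 or Lmod1.

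The first question was whether the contractile genes changed with age at all. In a moderated F test over the 9 ages (limma, adjusted over all 31042 probe sets), 5 of the 10 members passed, where 28.0% of all 14217 genes did, and all adjusted p-values of age and stage comparisons given here come from limma. These were Cnn1 (adjusted p = 1.29e-06), Myh11 (2.17e-05), Acta2 (0.000716), Myl9 (0.00107) and Mylk (0.00298). Actg2 lay just outside (0.0556), and Lmod1 (0.136), Tagln (0.254), Cald1 (0.609) and Smtn (0.801) did not pass. The same 5 genes also passed a test for a downward curve in time (a negative quadratic term), against 2.41% of all genes. Their adjusted p-values in limma lay between 7.99e-05 for Cnn1 and 0.00938 for Mylk. The set was put together with a course of this shape in mind, so the count describes the set. A negative quadratic term does not require both ends to be lower. Against mid-development, Myl9 was not called as lower in stage 1, and Myh11 was not called as lower in stage 4. The ages of the highest mean were P2 for Acta2, Tagln, Myl9 and Cald1, P5 for Actg2, P15 for Myh11, Cnn1 and Mylk, and P25 for Smtn and Lmod1.

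**Figure D1:**
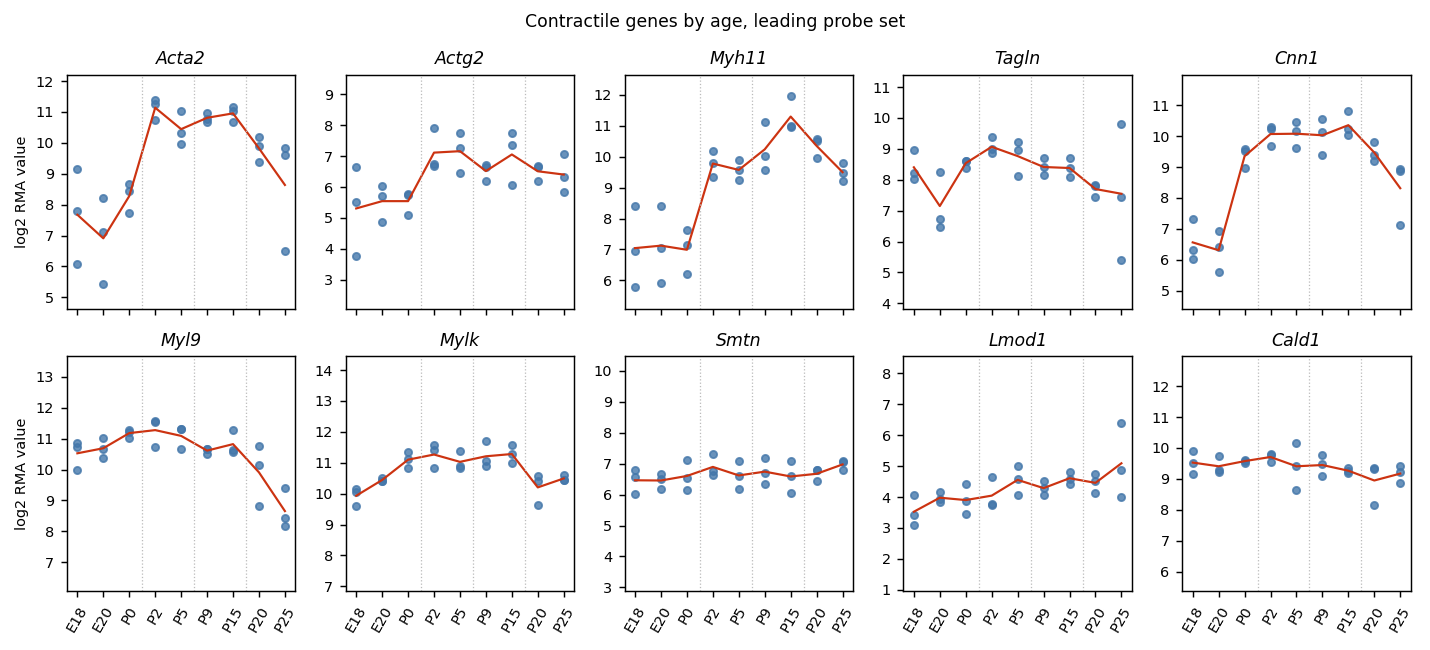
Levels of the 10 contractile genes (log2 RMA value of the leading probe set, y axis) at the 9 ages (x axis), with 1 point per array, a line through the age means and dotted lines between the stages. Acta2, Myh11 and Cnn1 climbed by more than 2.7 units between stage 1 and mid-development, Myl9 was flat until P15 and then fell, and Smtn and Cald1 stayed within 0.76 units between age means. Panels have their own level but the same span of the y axis.

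Acta2, the smooth muscle actin, was low and uneven before birth and high from P2. Its log2 values were 9.15, 7.79 and 6.08 at E18, 8.20, 5.43 and 7.10 at E20 and 8.43, 7.73 and 8.67 at P0. They were 10.75, 11.39 and 11.27 at P2, 10.32, 9.97 and 11.04 at P5, 10.96, 10.78 and 10.69 at P9 and 11.15, 11.04 and 10.67 at P15. All 12 arrays of mid-development therefore lay above all 9 of stage 1. At P20 the values were 10.20, 9.38 and 9.89, and at P25 they were 6.49, 9.60 and 9.82, with P25 replicate 1 far below the others. The age means ± SD (n = 3) ran from 6.91 ± 1.39 at E20 to 11.14 ± 0.34 at P2. Between neighbours in the order of age means, from P2 through P15, P9, P5, P20, P25, P0 and E18 down to E20, no step passed the test.

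Myh11, the motor of the smooth muscle filament, was high from P2 as well and was still high in stage 4. Its values were 8.40, 6.96 and 5.77 at E18, 8.40, 7.04 and 5.93 at E20 and 7.14, 7.62 and 6.21 at P0. They then stood at 10.19, 9.81 and 9.34 at P2 and 9.91, 9.25 and 9.56 at P5. At P9 they were 9.57, 11.11 and 10.04, and at P15 they were 11.95, 10.98 and 10.97. All mid-development arrays lay above all stage 1 arrays. At P20 the values were 10.58, 9.97 and 10.50 and at P25 9.22, 9.49 and 9.79, so every stage 4 array also lay above every stage 1 array. Among neighbours in the order of its age means, the only pair that differed was P25 (9.5 ± 0.29) over E20 (7.12 ± 1.24), by 2.38 ± 0.59 units (adjusted p = 0.00527 in limma). The 6 ages from P2 on thus formed an upper group and the 3 ages up to birth a lower one, with no neighbouring ages apart inside either.

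Cnn1, the calponin that binds actin and damps the motor, was already high at birth. It read 7.32, 6.04 and 6.33 at E18 and 6.94, 6.40 and 5.59 at E20. At P0 it already read 8.97, 9.58 and 9.51. From P2 to P15 it lay between 9.39 (P9 replicate 1) and 10.80 (P15 replicate 1). All 3 arrays of P0 lay above all 6 of the embryo, and P0 replicates 2 and 3 reached into the range of mid-development. It was 9.38, 9.21 and 9.82 at P20 and 7.14, 8.87 and 8.94 at P25. Of the steps between adjacent ages, the rise of Cnn1 from E20 to P0, by 3.04 ± 0.45 units (8.24-fold, adjusted p = 0.0112 in limma), was the only one of any member that passed the test, and 0.0141% of all genes were called as higher in that step. Between P0 and the mean of E18 and E20, Cnn1 changed by 2.92 units, Acta2 by 0.98 and Myh11 by -0.09. On leading probe sets, the difference between the change of Cnn1 and that of another member kept P0 apart from the embryo for 8 of the 9 other members. Acta2 was the exception. Higher levels at birth were not particular to Cnn1: the second Mylk probe set had age means of 6.80 at E18, 7.93 at E20 and 9.98 at P0. The comparison of Cnn1 with the other members is a description of a contrast singled out after its values were seen. With 3 against 6 arrays the smallest exact permutation p is 0.0119, too large to pass for the pairs of Cnn1 alone once adjusted over the 45 pairs of members, so a lead of Cnn1 over the others was not testable here.

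The second question was how far the set rose between the fetal and newborn gland and mid-development. In this comparison 5 of 10 members were higher and 0 lower, where 5.16% of all genes were higher and 9.05% lower. The median change of the 10 members was 0.67 units, beside 0.00 over all genes. Mid-development joins heads at P2 and P5 with dissected glands at P9 and P15. Stage 1 is from heads alone, so preparation differs in part here. Acta2 rose by 3.22 ± 0.40 units, or 9.29-fold (adjusted p = 1.75e-05), Myh11 by 3.17 ± 0.32 units, or 9.00-fold (8.70e-07), and Cnn1 by 2.73 ± 0.24 units, or 6.61-fold (2.00e-07). Actg2, the second smooth muscle actin, rose by 1.50 ± 0.31 units (0.0027) and Mylk, the kinase that switches the motor on, by 0.70 ± 0.15 units (0.00369). Acta2 and Myh11 were the members whose groups of arrays did not overlap, a pattern seen in the upward direction in 0.394% of all genes.

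Cnn1 aside, the actin-binding members did not pass in this comparison, and neither did the light chain. Lmod1, which starts new actin filaments, differed by 0.57 ± 0.23 units (adjusted p = 0.121), Tagln by 0.63 ± 0.36 (0.283), Smtn by 0.20 ± 0.17 (0.488), Myl9 by 0.15 ± 0.22 (0.703) and Cald1 by -0.05 ± 0.18 (0.901). Tagln, a small calponin relative, read between 6.48 and 8.97 in stage 1 with a median of 8.25, and between 8.12 and 9.37 with a median of 8.96 in stage 2. Its groups overlapped, and E20 replicates 2 and 3 (6.72 and 6.48) were the low arrays. Myl9 had a stage 1 range of 9.98 to 11.28 with a median of 10.87 and a stage 2 range of 10.65 to 11.56 with a median of 11.31. Myh11 was thus low before birth, while Myl9, a light chain that also serves other myosins, was not distinguishable from its mid-development level.

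**Figure D2:**
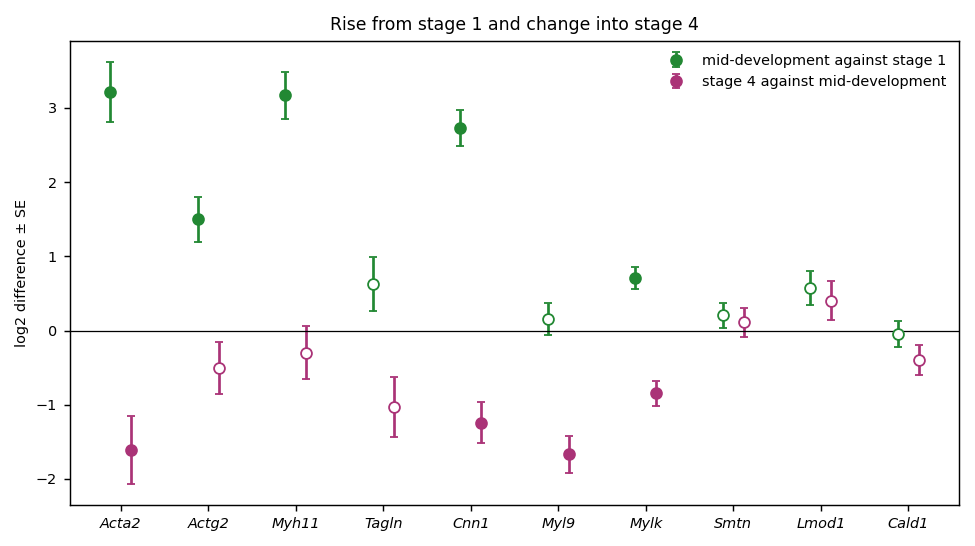
Log2 differences ± SE (y axis) of the 10 contractile genes (x axis) for mid-development against stage 1 (green) and stage 4 against mid-development (purple), with filled points past an adjusted p of 0.05 in limma. The green points of Acta2 (3.22), Myh11 (3.17) and Cnn1 (2.73) stand highest, Actg2 and Mylk rose by less, and the filled purple points are those of Acta2, Cnn1, Myl9 and Mylk.

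Most of the rise was placed between stage 1 and stage 2, within the ages at which heads were sectioned. Here 5 of 10 members were higher, where 2.30% of all genes were: Acta2 by 3.17 ± 0.48 units (adjusted p = 0.000451), Cnn1 by 2.67 ± 0.29 (8.95e-06), Myh11 by 2.62 ± 0.38 (0.000252), Actg2 by 1.67 ± 0.37 (0.0129) and Mylk by 0.66 ± 0.18 (0.0491). The call of Mylk was lost when any of 24 of the 27 arrays was left out. In the single step from P0 to P2, no member passed, where 0.183% of all genes were higher, although 3 members had an unadjusted p below 0.05. Myh11 differed by 2.79 ± 0.59 units in that step (adjusted p = 0.0543), Acta2 by 2.86 ± 0.75 (0.165) and Actg2 by 1.57 ± 0.57 (0.413). Setting P5 against E18 alone, Cnn1 was higher by 3.52 ± 0.45 units (0.000148) and Myh11 by 2.53 ± 0.59 (0.0315), so 2 of 10 members passed where 1.10% of all genes did. The count was 1 without E18 replicate 3 or without any single P5 array, where the call of Myh11 was lost. Without E18 replicate 2, Myh11 was lost and Actg2 gained. Acta2 was gained without E18 replicate 1 or P25 replicate 1. Mylk was gained without P2 replicate 1, P9 replicate 1 or P20 replicate 2.

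From stage 2 to stage 3 no member was called in either direction, where 0.218% of all genes were higher and 0.626% lower. At an unadjusted p below 0.05 there was 1 member, Myh11, at 1.09 ± 0.41 units (adjusted p = 0.217). The largest other differences were -0.52 ± 0.47 for Tagln and -0.47 ± 0.28 for Myl9. The source of the tissue changed from sectioned heads to dissected gland between these stages, so stage and preparation cannot be told apart in this comparison.

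The third question was which contractile genes fell again as the acini matured. Between mid-development and stage 4, 4 of 10 members were lower and 0 higher, where 12.9% of all genes were lower and 14.7% higher. The median change of the members was -0.68 units, beside 0.06 over all genes. Stage 4 came from dissected gland alone and mid-development from both preparations, so age and preparation are mixed in part here too. Myl9 fell by 1.67 ± 0.25 units, or 3.18-fold (adjusted p = 6.50e-05), Acta2 by 1.60 ± 0.46, or 3.04-fold (0.0151), Cnn1 by 1.24 ± 0.28, or 2.36-fold (0.00314), and Mylk by 0.85 ± 0.17, or 1.80-fold (0.00132). An actin, the calponin, the light chain and the light chain kinase were thus lower, while the heavy chain was not called: Myh11 stood at -0.30 ± 0.36 units (0.571).

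Myl9 showed this fall most plainly. It read 10.72, 11.55 and 11.56 at P2, 11.30, 10.65 and 11.32 at P5, 10.67, 10.50 and 10.67 at P9 and 11.27, 10.62 and 10.58 at P15. At P20 it read 10.76, 8.82 and 10.15, and at P25 8.42, 9.39 and 8.16. All P25 arrays lay below every earlier array up to P15, and P20 replicate 1 still overlapped with mid-development. Mylk lay between 10.82 and 11.69 in mid-development and between 9.63 and 10.60 in stage 4, with a stage 4 median of 10.44, and it was the member whose stage 4 arrays all lay below mid-development, as in 1.1% of all genes.

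The remaining members gave values short of the test. Tagln differed by -1.03 ± 0.41 units (adjusted p = 0.0659), and its P25 arrays were spread from 5.39 in replicate 1 through 7.43 in replicate 2 to 9.82 in replicate 3, the widest spread of any member at any age. Actg2 differed by -0.50 ± 0.35 (0.294) and Cald1 by -0.40 ± 0.21 (0.157). Lmod1 (0.40 ± 0.26, 0.27) and Smtn (0.11 ± 0.20, 0.702) had positive differences. Lmod1 read 3.42, 3.10 and 4.06 at E18 and 4.01, 4.87 and 6.40 at P25, and lay below the array medians in every array but P25 replicate 3.

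P25 carried much of the fall. Without the P25 arrays, a choice made after seeing the data, 2 of 10 members were lower in stage 4, and the difference was -1.01 for Acta2 (adjusted p = 0.261) and -0.67 for Cnn1 (0.241). Without P25 replicate 1 alone, Acta2 stood at -1.07 (0.0592). In the comparison of P25 with P9, both from dissected gland, 2 of 10 members were lower where 5.11% of all genes were: Cnn1 by 1.71 ± 0.45 units (0.0222) and Myl9 by 1.96 ± 0.40 (0.00403), and this count was 1 without P9 replicate 2 or 3 or P25 replicate 1 and 4 without P25 replicate 3. From stage 3 to stage 4, 3 of 10 members were lower where 5.27% of all genes were, namely Myl9 by 1.43 ± 0.28 units (0.00271), Mylk by 0.90 ± 0.20 (0.00617) and Cnn1 by 1.30 ± 0.32 (0.0140), and 5 were lower without P25 replicate 3.

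Between the ends of the series the members differed in opposite directions. Stage 1 was cut from sectioned heads and stage 4 from dissected gland, so age and preparation cannot be told apart in this comparison. Stage 4 was above stage 1 for 5 of 10 members, where 25.0% of all genes were higher, and below it for 1, where 22.7% were lower. Myh11 was higher by 2.87 ± 0.38 units, or 7.33-fold (adjusted p = 5.24e-06), Acta2 by 1.61 ± 0.48 (0.0106), Cnn1 by 1.48 ± 0.29 (0.000451), Actg2 by 0.99 ± 0.37 (0.0327) and Lmod1 by 0.97 ± 0.28 (0.00775), while Myl9 was lower by 1.52 ± 0.26 (0.000118). The groups of arrays did not overlap for Myh11, as in 5.88% of all genes in that direction. The changes of Myh11 and Myl9 lay 4.39 units apart, and the arrays of the stages did not overlap in the difference between these genes, a pair picked out after its values were seen and given as a description. The calls of Actg2 and Lmod1 were lost, and Myl9 had an adjusted p of 0.0506 in limma, without the P25 arrays.

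Members with several probe sets did not always give the same course. The second Mylk probe set showed a larger course than the leading one: it rose by 1.77 ± 0.28 units into mid-development (adjusted p = 0.000264) and fell by 1.11 ± 0.32 into stage 4 (0.0153), and its E18 arrays read 7.48, 6.60 and 6.32 against 9.94, 10.53 and 11.55 at P2. The second Myh11 probe set rose by 1.00 ± 0.31 into mid-development (0.0426) and stood at 0.53 ± 0.35 in stage 4 (0.281), with its highest age mean at P20 (6.76). Of the other Cald1 probe sets, 1 was lower in stage 4 than in stage 1 by 0.76 ± 0.18 units (0.00223), while the other, which stayed between 2.76 and 4.03 in all arrays, was higher by 0.52 ± 0.15 (0.0079). The second Smtn probe set passed in neither comparison with mid-development (-0.09 ± 0.23 and -0.53 ± 0.26 units). Smtn therefore had no course that its probe sets shared. For Cald1, the leading probe set also stood lower in stage 4 than in stage 1 (-0.45 ± 0.22), without passing (adjusted p = 0.0984 in limma). The Cald1 probe set that was higher had low values in all arrays.

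The probe sets paired with both Acta2 and Actc1 did not follow Acta2. The one with the highest mean read 12.94, 5.31 and 6.60 at E18, 12.53, 10.05 and 5.25 at E20 and 11.57, 6.98 and 9.62 at P0, and between 4.92 and 5.42 in all stage 4 arrays. Its 3 highest arrays were E18, E20 and P0 replicate 1, in which the mean level of the skeletal muscle markers was 10.56, 10.51 and 9.71. The order was not the same throughout: P9 replicate 3, with the highest marker level of all (11.44), read 8.67, and E20 replicate 2, at a marker level of 7.63, read 10.05. In P2 replicates 2 and 3, where those markers averaged 5.85 and 5.25, it read 4.95 and 5.12 while the Acta2 probe set read 11.39 and 11.27. The shared probe sets were lower in mid-development than in stage 1 by 2.08 ± 0.67 units (adjusted p = 0.0490) and 2.18 ± 0.69 (0.0440) in 2 of 5 cases, opposite to Acta2. They were left out of every count above.

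**Figure D3:**
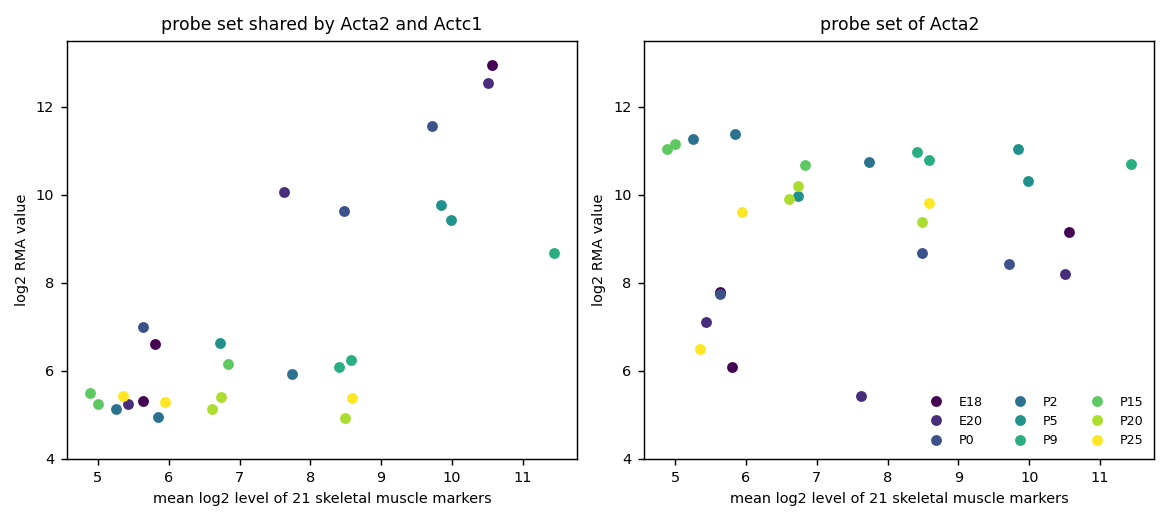
Level of a probe set paired with both Acta2 and Actc1 (left) and of the Acta2 probe set (right), in log2 RMA values (y axis), against the mean log2 level of 21 skeletal muscle markers (x axis), with 1 point per array coloured by age. On the left the arrays with the highest marker levels of E18, E20 and P0 stand at 11.57 to 12.94, and on the right arrays from P2 to P15 stand high at every marker level.

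Skeletal muscle markers moved with these values at some ages and not at others. At E18 and E20 the array with the high skeletal muscle markers also held the highest Acta2 (9.15 and 8.20) and Myh11 (8.40 and 8.40) of its age. P5 replicates 1 and 3 lay above replicate 2 for both genes. At P0, replicate 1 held the highest value of neither gene. P9 replicate 3, with the highest marker level of all (11.44), held the lowest Acta2 of its age. Without the 6 arrays above 9.5, the rise into mid-development was 3.60 ± 0.48 units for Acta2 (adjusted p = 0.000394), 3.58 ± 0.33 for Myh11 (1.46e-05) and 2.76 ± 0.30 for Cnn1 (7.39e-05), as large as with them, while Actg2 (1.44 ± 0.42, 0.0554) and Mylk (0.61 ± 0.19, 0.0751) no longer passed, leaving 3 members. With the mean level of the skeletal muscle, fibroblast, pericyte or basal epithelial markers as a covariate, 5 members were called as higher in each case.

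The fall into stage 4 ran alongside falls in markers of other tissues. Of 12 fibroblast markers 11 were lower in stage 4 than in mid-development and 0 higher, beside 12.9% and 14.7% of all genes. Their mean level lay between 9.78 and 11.26 in mid-development and between 8.5 and 9.64 in stage 4. With that level as a covariate no member was called as lower in stage 4: Acta2 stood at -0.79 ± 0.89 (adjusted p = 0.731), Myl9 at -1.26 ± 0.48 (0.208), Cnn1 at -1.09 ± 0.55 (0.365) and Mylk at -0.83 ± 0.34 (0.243). The covariate itself moved with age, and the standard errors grew with it. With the skeletal muscle covariate 4 members were called and with the pericyte covariate 3. In a bulk capture fewer cells of a type and less RNA per cell cannot be told apart.

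Genes taken as markers of the cells that use the contractile genes were read from lists. Between mid-development and stage 4, 12.9% of all genes were lower and 14.7% higher. Between stage 1 and mid-development, 5.16% were higher and 9.05% lower. Of 12 myoepithelial and basal epithelial genes 7 were lower in stage 4 than in mid-development and 0 higher, with a median of -1.51 units. They included the basal keratins Krt14 (-2.62 ± 0.34, adjusted p = 1.43e-05) and Krt5 (-2.51 ± 0.34, 2.31e-05), Mme, the surface peptidase CD10 (-2.08 ± 0.32, 0.000116), and Col17a1, a hemidesmosome collagen (-1.95 ± 0.31, 0.000149). In mid-development against stage 1, 0 of the 12 were higher and 1 was lower, Tp63, the basal epithelial transcription factor (-1.14 ± 0.26, 0.00537). Their mean level lay between 7.78 and 8.18 in stage 1, between 7.05 and 8.85 in mid-development and between 5.9 and 6.97 in stage 4. Krt5 and Krt14 did not pass in that comparison (-0.55 ± 0.30, 0.254, and 0.07 ± 0.30, 0.908), in which Acta2, Myh11, Cnn1, Actg2 and Mylk were higher. Acta2, Cnn1, Myl9 and Mylk were the members lower in stage 4 beside these basal genes. The captures also held epidermis and hair genes, listed further below. The mean level of both lists was highest at P5, at 8.5 for the basal list and 9.31 for epidermis and hair. From P15 to P25 the basal list went from 7.25 to 6.31 and the epidermis and hair list from 5.18 to 5.36. Whether the basal transcripts came from gland or skin cells was not tested. Oxtr, the oxytocin receptor of mammary myoepithelium, stayed between 2.82 and 3.52 in its age means, near the lowest values of the table. With the mean of the basal list as a covariate the members lower in stage 4 again numbered 0. That mean did not overlap between mid-development and stage 4. The covariate could therefore not be separated from the comparison, and no conclusion is drawn from this count.

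**Figure D4:**
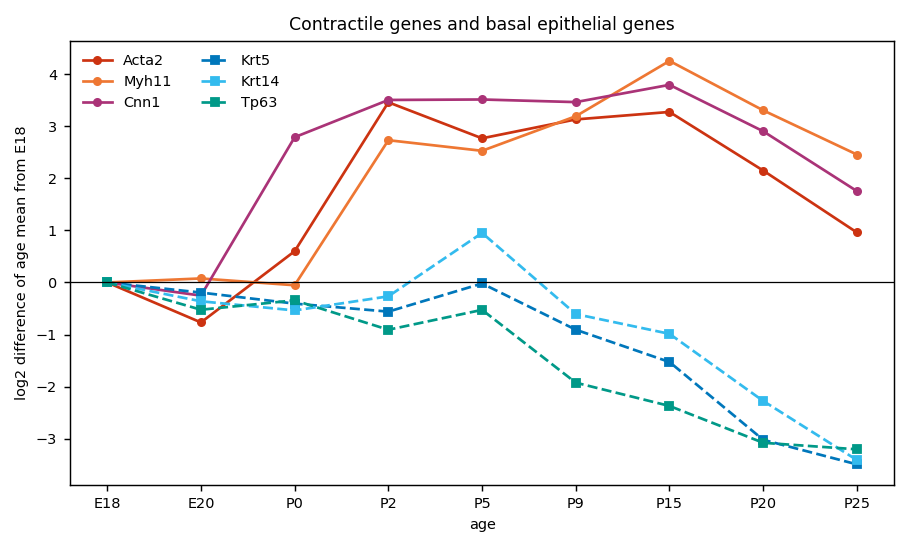
Log2 difference of each age mean from E18 (y axis; n = 3 arrays per age) at the 9 ages (x axis) for 3 contractile genes (solid lines) and 3 basal epithelial genes (dashed lines). Cnn1 was up by 2.79 units at P0 and Acta2 by 3.46 and Myh11 by 2.73 at P2. Krt5, Krt14 and Tp63 stayed within 1 unit of E18 until P5 and lay more than 3 units below it at P25. Whether the transcripts of Krt5, Krt14 and Tp63 came from gland or skin cells was not tested.

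Pericyte and vascular smooth muscle genes were read in the same way. Of 12 measured, beside 5.16% of all genes, 1 was higher in mid-development than in stage 1, Rgs5, a defining pericyte regulator of G protein signalling (1.30 ± 0.35, adjusted p = 0.0191), and between mid-development and stage 4, where 12.9% of all genes were lower and 14.7% higher, Cspg4 (the NG2 proteoglycan) was lower (-1.42 ± 0.23, 0.000222) and Higd1b higher (0.53 ± 0.18, 0.0398). Their mean level overlapped between all stages, from 6.39 to 7.46 in stage 1, 6.4 to 7.47 in mid-development and 6.42 to 6.88 in stage 4. Pdgfrb stood at -0.58 ± 0.21 (0.052) and Notch3 at -0.49 ± 0.22 (0.105). The share of vascular smooth muscle in the members' values was not tested beyond these lists.

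Other parts of the contractile machine were read from a list of 24 smooth muscle cytoskeleton genes (Mcam and Des of this list are also in the pericyte list). In mid-development against stage 1, 2 were higher and 5 lower, beside 5.16% and 9.05% of all genes, with a median of 0.04 units. Tpm2, the tropomyosin of smooth and slow muscle, rose by 0.95 ± 0.14 (adjusted p = 0.000105) and Actn1, which crosslinks actin, by 0.68 ± 0.19 (0.0195). Into stage 4, 13 were lower and 1 higher, beside 12.9% and 14.7% of all genes, with a median of -0.84 units. Flna, the large actin crosslinker, fell by 1.80 ± 0.21 (4.86e-06), Csrp2, a LIM protein of muscle, by 1.80 ± 0.29 (0.000194), Cnn2, a non-muscle calponin, by 1.38 ± 0.22 (0.000153) and Tpm2 by 1.13 ± 0.16 (3.02e-05). In mid-development against stage 1, Flna stood at -0.14 ± 0.19 (0.691), and Csrp2 (-1.25 ± 0.26, 0.00302) and Cnn2 (-0.85 ± 0.19, 0.00636) were lower.

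Most enzymes that set myosin phosphorylation did not pass in either comparison. Of 11 measured, beside 5.16% of all genes, 1 was higher in mid-development than in stage 1, Ppp1r12b, a targeting subunit of myosin phosphatase (1.53 ± 0.48, adjusted p = 0.0456). Into stage 4, 2 were higher and 2 lower, near the shares of all genes (14.7% and 12.9%). The higher ones were Ppp1r14a, the inhibitor CPI-17 of myosin phosphatase (0.83 ± 0.21, 0.00663), and Ppp1cb, its catalytic subunit (0.48 ± 0.14, 0.0188). The other phosphatase subunit Ppp1r12a (-0.75 ± 0.19, 0.00733) and the GTPase Rhoa (-0.45 ± 0.14, 0.0236) were lower. The list had a median of -0.17 units.

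Of 9 genes that regulate serum response factor or its targets, 0 were called between stage 1 and mid-development in either direction. Of all genes, 5.16% were higher and 9.05% lower. Srf itself ran from 10.16 at E18 to 9.12 at P25 and was lower in stage 4 than in stage 1 by 0.86 ± 0.18 units (adjusted p = 0.000765), while neither step alone passed: it stood at -0.43 ± 0.15 in mid-development against stage 1 (0.072) and at -0.43 ± 0.17 in stage 4 against mid-development (0.0665). Myocd, which encodes myocardin, lay between 5.21 and 5.89 in its age means and did not pass the F test (0.948). Into stage 4, Gata6 was higher (0.61 ± 0.16, 0.00766) and Tgfbr1, a receptor of TGF-beta (-0.83 ± 0.23, 0.0126), and Elk1, a partner of SRF in growth signalling (-0.73 ± 0.24, 0.0291), were lower.

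Non-muscle actin and myosin genes are used by every cell. Of 10 measured, 4 were lower in mid-development than in stage 1 and 0 higher, beside 9.05% and 5.16% of all genes. The 4 were Actg1 (-0.74 ± 0.13, adjusted p = 0.000532 in limma), Myh10 (-1.34 ± 0.25, 0.00143), Tpm4 (-0.39 ± 0.12, 0.0378) and Cnn3 (-1.04 ± 0.19, 0.00119). Into stage 4, where 12.9% of all genes were lower, 4 of the list were. These were Cnn3 (-1.96 ± 0.22, adjusted p = 2.00e-06 in limma), Myh10 (-1.28 ± 0.29, 0.00332), Myl12a (-0.87 ± 0.18, 0.00129) and Tpm4 (-0.59 ± 0.14, 0.00416). Actg1 and Myh10 are non-muscle relatives of Acta2 and Myh11, and they were lower in mid-development than in stage 1, where those were higher. The other non-muscle heavy chains of the list did not pass in that comparison. Myh9 stood at -0.08 ± 0.16 (adjusted p = 0.787 in limma) and Myh14 at 0.11 ± 0.22 (0.80).

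How closely the members ran together was read from correlations across the 27 arrays, which are descriptions, since arrays of an age share their age. Acta2 with Cnn1 gave r = 0.86, Acta2 with Myh11 0.79, Acta2 with Actg2 0.76 and Myh11 with Cnn1 0.74. After the age means were taken away these values were 0.64, 0.46, 0.50 and 0.62. Smtn and Cald1 had the loosest ties, with a median r of 0.12 and 0.09 to the other members, and Myl9 with Lmod1 gave the lowest value, -0.42. At the level of arrays, P5 replicate 2 lay below its age mean in all 10 members, and E20 replicate 1 and P5 replicate 3 above it in 9.

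Among the genes outside the set, those most like the mean of the 10 standardised members over the 27 arrays were Cast, the calpain inhibitor calpastatin (r = 0.85), Tpm2 (0.82), Papss2, which makes the sulfate donor (0.80), Adh1c, an alcohol dehydrogenase (0.79), Aoc3, a surface amine oxidase of smooth muscle and fat cells (0.73), Pbrm1 (0.73), Inhca (0.72), Kdr, the endothelial VEGF receptor (0.72), Ascl3, a factor of duct cells (0.71), and Dock8 (0.71). For Acta2 alone the closest were Cast (0.82), Adh1c (0.82), Sult1c3 (0.79), Papss2 (0.79) and Ucp2 (0.78). For Myh11 alone they were Gas6, a ligand of TAM receptors (0.90), Sult1c3 (0.88), Sftpd, a collectin (0.86), Slc6a20a (0.86) and Smr3a, a salivary secretory protein (0.85). The 2 lists share Sult1c3 alone. Cast had its highest age mean at P2 and Gas6 at P15, the ages of the highest Acta2 and Myh11.

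The remaining marker lists give the levels of genes of other tissues in the same captures. The paper reports that its captures had no appreciable contamination by ducts or connective tissue. It describes the transient rise of Pparg as part of acinar cell differentiation. Which cells these transcripts came from was not tested. Over all genes, 5.16% were higher in mid-development than in stage 1. Into stage 4, 12.9% of all genes were lower and 14.7% higher. Of 10 adipocyte genes 9 were higher in mid-development than in stage 1 and 7 lower in stage 4, with the fat regulator Pparg at -1.71 ± 0.29 (adjusted p = 0.000242) and the adipokine Adipoq at -2.35 ± 0.47 (0.0013), and their mean level lay between 5.22 and 6.99 in stage 1, 6.21 and 9.27 in mid-development and 5.63 and 7.14 in stage 4. Of 10 endothelial genes 0 were higher in mid-development and 2 lower in stage 4, near the share of all genes: Vwf (-3.09 ± 0.60, 0.00103) and Esam (-0.84 ± 0.24, 0.015). Of 8 epidermis and hair genes 2 were higher in mid-development and 3 lower in stage 4, led by the hair protein Tchh (-4.99 ± 0.62, 7.44e-06). Of 21 skeletal muscle genes 0 were called into mid-development and 1, Myh1, was higher in stage 4 (0.65 ± 0.13, 0.00104), with a mean level between 5.35 and 8.59 there. Of 11 duct genes 3 were higher in mid-development and 3 lower in stage 4, with the duct keratin Krt19 at -1.64 ± 0.27 (0.000185). Of 10 acinar genes 9 were higher in stage 4 and 1 lower, and the secretory Prb3 (7.77 ± 0.20, 2.23e-17) and Dnase1 (9.18 ± 0.24, 2.23e-17) led. The part of these tissues in the members' course was not tested beyond the covariates given above.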

How the data were processed

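Per the authors' methods, RNA was amplified with the NuGEN Ovation Pico kit, and the arrays were background corrected, normalised and summarised by Robust Multi-array Average (RMA). The labels name 1.5 and 4.5 ng of input RNA without saying which array had which, and name another extraction kit than the paper; neither was tested. The deposited table holds these log2 values for 31099 probe sets, and 57 of them, controls of the array itself, were not analysed. No further normalisation was applied. Arrays give no read depth, so the 3 arrays per age limit the precision.

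Gene names came from the platform annotation, 20826 probe sets had 1 symbol, and 20758 of these matched a RefSeq gene ID. With limma 3.58.1 in R 4.3.3, a mean per age was fitted to all 27 arrays (18 residual degrees of freedom), contrasts of stages and ages were taken, and Benjamini-Hochberg adjustment ran over 31042 probe sets, with a threshold of 0.05. A curve in time was tested as the quadratic term of days after conception, with birth at day 22. Shares over all genes use the leading probe set of each of 14217 genes. Comparisons between members and sequence searches ran in Python 3.11.15 with numpy 2.4.6 and pandas 2.3.3. The model was tested on simulated data first.

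The members and lists were chosen with earlier results of these data known. From each list, up to 4 genes were named by the size of the moderated t between stage 4 and mid-development; further list genes were chosen after their values were seen. The 10 genes most like the mean of the standardised members, and 5 each for Acta2 and Myh11, were named by Pearson's r. In the lists, 20 names had no probe set of their own, and some of them were other names of a gene also listed. The alternatives were 15 settings and the omission of each array in turn. Samples were grouped by the age in the labels. Same-numbered arrays deviated together in 11 of 108 pairs (correlation above 0.1), so the numbers were not taken as pairs.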

Additional observations from a re-analysis of the deposited data

Results flagged for a closer look

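Each member was checked in each stage for an array that stood apart from the rest of its group, in 40 groups, and 5 groups held one; chance alone gives about 1 in 20. In stage 4, P25 replicate 1 was far below the others for Acta2 (6.49, with the nearest array at 9.38) and for Cnn1 (7.14, nearest 8.87). That array had 2 of 10 members above their age mean, and its marker levels lay at 9.43 for fibroblasts, 6.4 for basal epithelium and 12.52 for acinar genes, beside 8.5 and 8.84, 6.62 and 5.9, and 12.55 and 12.5 in the other P25 arrays. In stage 3, Myl9 was highest in P15 replicate 1 (11.27, nearest 10.67). In stage 4, Mylk was lowest in P20 replicate 2 (9.63, nearest 10.42) and Lmod1 highest in P25 replicate 3 (6.40, nearest 4.87). The cause of these values was not tested.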

How the results depend on the processing

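Counts are of the 10 members past the threshold. With array weights 4 were higher at P5 than at E18, and with only the ages compared in the fit 1 was, and 0 were lower at P25 than at P9. With the fibroblast covariate, 1 passed for the curve in time, 3 for stage 2 over stage 1, 0 for stage 4 below stage 3, 2 for stage 4 over stage 1, 0 for stage 4 below mid-development, 1 for P5 and 0 for P25. With the basal epithelial covariate these were 3 for the curve, 0 below stage 3, 1 over stage 1, 0 below mid-development, 1 for P5 and 0 for P25. Neither of these marker levels overlapped between mid-development and stage 4, so these fits cannot separate the covariate from that comparison. Without the 6 arrays high in skeletal muscle markers (chosen after seeing the data) 3 were higher in stage 2, 3 in mid-development and 1 at P5, and 1 was lower at P25. Without the P25 arrays (also chosen after seeing the data) 3 passed for the curve, 1 below stage 3, 3 over stage 1 and 2 below mid-development.

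Leaving out each array in turn gave 3 to 5 members below stage 3, 1 to 3 for P5 over E18 and 1 to 4 for P25 below P9. The differences that changed sign had not passed the test. Cald1 into mid-development became 0.10 with quantile normalisation and 0.026 with array weights. Into stage 4, Myh11 became 0.93 with the fibroblast covariate, 0.14 with the basal one, 0.12 as the mean of its probe sets and 0.13 without P25. Lmod1 became -0.039 and -0.82 with the same covariates, and Smtn -0.31 with the basal one, -0.21 as the mean of probe sets and -0.036 without P25. With the rank of age in place of days, the curve of Myh11 had an adjusted p of 0.0540 in limma. The cause of these shifts was not tested.

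With the replicate number as a block, which pairs arrays that share only a number, 4 members were higher in stage 2 than in stage 1 (Mylk at an adjusted p of 0.0637 in limma), 5 in mid-development and 5 in stage 4, and 4 were lower in stage 4 than in mid-development. The number of arrays, 3 per age, limits single-age steps, and Lmod1 and Actg2 lie near the array medians or below, where signal over background is small.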
